A study of Mus musculus with 4 samples.

Results

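Maternal mRNA decay factors were examined as a set of 10 genes in mouse 2-cell embryos cultured with or without dimethyl sulfoxide (DMSO). The genes were Btg4, Cnot1, Cnot6l, Cnot7, Cnot8, Zfp36l2, Pabpn1l, Ythdf2, Dcp1a and Dcp2. The rule takes the rows whose Ensembl identifiers carry these symbols, listed by function. All 10 were found among the 30049 genes of the deposited table. The embryos came from matings among BDF1 mice (crosses of C57BL/6 and DBA/2) of 8 to 12 weeks of age, and are labelled BDF1*BDF1 F2 and wild type. Zygotes taken 18 h after human chorionic gonadotropin were kept for 24 h in KSOM, a culture medium for early embryos, either alone (control) or with DMSO at 2%. At the 2-cell stage 50 embryos per group went into RNA sequencing, and each group has 2 libraries, numbered replicates 1 and 2. Neither the number of embryos behind a single library nor a separate culture for each is given in the sources used here, so p-values measure the spread between libraries, which may be technical.

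The oocyte stores mRNA for use after fertilization, and the embryo clears much of it as its own genome becomes active. Clearance begins when the poly(A) tail is shortened by CCR4-NOT, a deadenylase complex built on the scaffold CNOT1, with catalytic subunits of the CNOT7/CNOT8 and CNOT6/CNOT6L pairs. Adaptors bring the complex to its targets, and decapping by DCP2 with its activator DCP1A then opens the 5′ end to exonucleases. Several of these factors are themselves stored as maternal mRNA.

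Levels are given in TPM, a unit corrected for transcript length and library total, so that genes can be set against each other. TPM does not keep the depth of a library, which is therefore unknown. The table's genes added up to 768174 TPM (control replicate 1), 780527 TPM (control replicate 2), 772487 TPM (DMSO replicate 1) and 799166 TPM (DMSO replicate 2). Mitochondrially encoded genes took 10.8% and 12.4% of this sum in the control group, against 15.3% and 21.7% under DMSO. The part of these genes in the results was examined only by a rescaling without them, which is given where it changed a call. The library kit starts cDNA at the poly(A) tail. Fewer molecules, less RNA per embryo and shorter tails therefore cannot be told apart in these values.

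The label of the embryos was set against marker genes. The 5 markers of the 2-cell stage (Zscan4c, Zscan4d, Zscan4f, Tcstv1 and Tcstv3) were all present in each library and summed to 660 and 495 TPM in control embryos, and to 1718 and 1205 TPM after DMSO. Of 11 markers of cumulus and granulosa cells, which surround the egg, 2 reached a mean of 1 TPM. Their sum was 40.3 and 32.2 TPM in control embryos, and 13.1 and 20.2 TPM after DMSO. Most of this was Amhr2, the receptor of anti-Müllerian hormone, without which the sums were 3.51 and 2.51 TPM (control) and 4.80 and 3.70 TPM (DMSO). Lhcgr was listed at 0 throughout, and the cumulus genes Has2 and Ptx3 did not exceed 0.165 TPM. The cumulus gene Tnfaip6 stood at 1.52 and 0.225 TPM (control) and 0.958 and 0.970 TPM (DMSO). Cyp11a1 stood at 0.781 and 0.802 TPM (control) and 2.10 and 0.958 TPM (DMSO). Of 6 sperm and spermatid markers Tnp2 was listed at 0 throughout, and the sum, mostly Prm2, was 2.96 and 3.38 TPM (control) and 13.5 and 8.69 TPM (DMSO).

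Differences were tested by limma, which fits each gene's log2(TPM + 1) and steadies the variance with that of other genes, and p-values were adjusted by the Benjamini-Hochberg method. The test covered 12038 genes whose mean reached 1 TPM. All 10 decay factors passed this filter, Cnot1 only just with a mean of 1.04 TPM and through the control group alone, its DMSO mean being 0.413 TPM. Fold changes are on the log2(TPM + 1) scale, which understates changes of low genes.

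Btg4 and Pabpn1l rose and Cnot8 fell in DMSO-treated embryos at an adjusted p-value under 0.05, and the other 7 factors did not pass. Over all genes 20.5% were called. Higher calls were 2 of the 10 factors, against 6.42% of all genes, and lower calls were 1 of 10, against 14.1%. The whole table had 773 higher and 1697 lower calls, so that 31.3% of calls were higher. This balance moved with the scaling, to 42.9% higher after median-ratio scaling, 49.0% after quantile normalization and 40.2% after rescaling without mitochondrial genes. The median log2 fold change of the factors was 0.77, against -0.09 for all genes, with 6 positive and 4 negative values.

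These calls depend on the filter and on each library. With no filter on low values limma called 0 genes in the whole table, although 5368 had an unadjusted p-value under 0.05. Without control replicate 1, control replicate 2 or DMSO replicate 1 it also called 0 genes, with 3745, 2602 and 3078 at an unadjusted p-value under 0.05. Without DMSO replicate 2 it called 1883 genes, of which Cnot6l was the 1 decay factor.

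In 9 of the 10 factors the groups did not overlap, 5 being higher and 4 lower after DMSO. Over all genes 69.8% did not overlap, 31.1% higher and 38.7% lower, so separation was common in this table. The exception was Cnot7. The 4 lower factors include Cnot1, which passed the filter through the control group alone, so its separation cannot be read as support for the count. With 2 libraries against 2, the smallest p-value that an exact two-sided permutation test of a single value can give is 0.333.

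**Figure D1:**
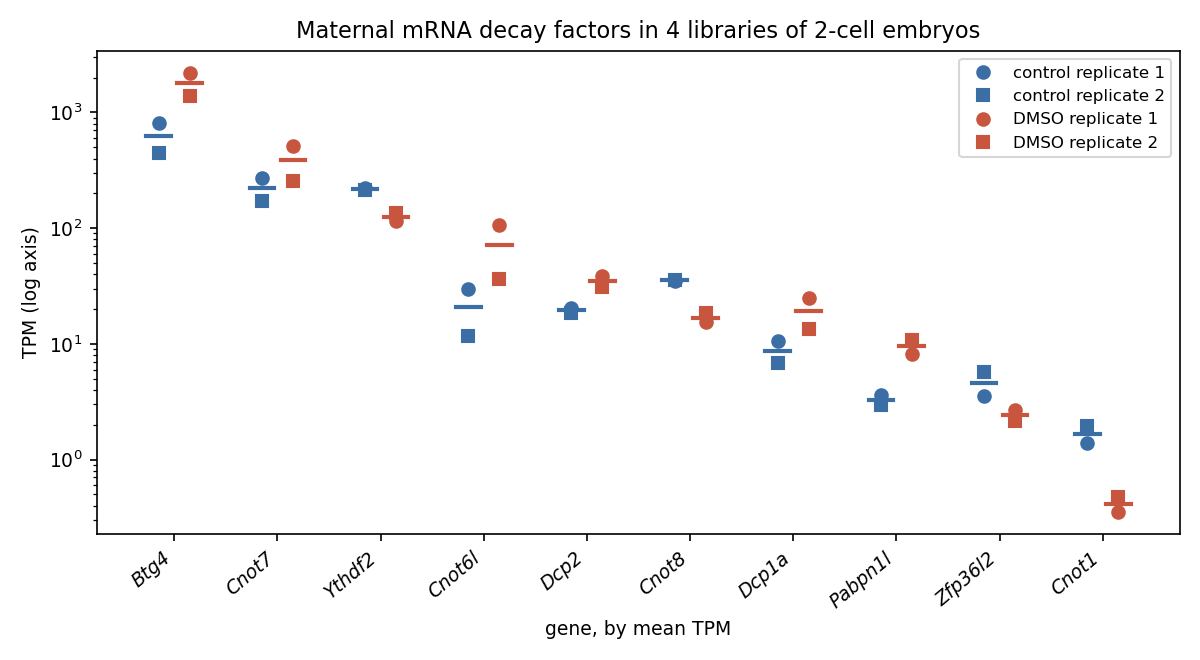
TPM of each decay factor (log axis) in the 2 control and 2 DMSO libraries, with horizontal bars at the group means and genes ordered by mean TPM. Btg4 lies highest and Cnot1 lowest in every library, and the groups overlap only for Cnot7.

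Btg4 encodes an adaptor that binds the CNOT7 and CNOT8 deadenylases and is needed for the main wave of maternal mRNA clearance. Control embryos had 813 and 446 TPM of Btg4, and DMSO-treated embryos 2207 and 1380.0 TPM. Both DMSO values lay above both control values, and Btg4 was the most abundant of the 10 factors in each library. Among the 12038 genes it ranked 123 and 270 in control embryos and 34 and 58 after DMSO. The log2 fold change was 1.53, with a standard error of 0.38 (limma adjusted p = 0.0385). Leaving out each library in turn gave 1.10 to 1.97 with adjusted p-values from 0.0526 to 0.234, and limma without a mean-variance trend gave 0.0530. Btg4 (ENSMUSG00000032056) spans chromosome 9 of GRCm38 from 51060901 to 51119875 on the plus strand. It overlaps Layn and 4833427G06Rik on the opposite strand, but none of its 31-base words, the unit by which shared sequence was counted, occurs in transcripts of other genes.

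Pabpn1l encodes a poly(A)-binding protein of eggs and early embryos that works with BTG4 in maternal mRNA clearance. Control embryos had 3.59 and 2.95 TPM of it, and DMSO-treated embryos 8.24 and 10.8 TPM. It ranked 8365 and 8470 among the 12038 genes in control embryos, and 5953 and 5140 after DMSO, and was higher in both DMSO libraries. On the log2(TPM + 1) scale it rose by 1.29, with a standard error of 0.33 (limma adjusted p = 0.0393). Leaving out each library in turn gave 1.12 to 1.47, with adjusted p-values from 0.119 to 0.231. Pabpn1l (ENSMUSG00000069867) spans chromosome 8 from 122619471 to 122622739 on the minus strand, and no word of it is shared.

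Zfp36l2 encodes a zinc finger protein that binds AU-rich elements in 3′ UTRs and recruits CCR4-NOT. Control embryos had 3.52 and 5.69 TPM of it, and DMSO-treated embryos 2.69 and 2.17 TPM. The groups did not overlap, but the lower control library was close to the higher DMSO library. The log2 fold change of -0.69, with a standard error of 0.36, did not pass the test (limma adjusted p = 0.196). It was -0.40 without control replicate 2 and -0.97 without control replicate 1. Zfp36l2 (ENSMUSG00000045817) spans chromosome 17 from 84183931 to 84187947 on the minus strand, and an antisense transcript holds 2.14% of its words.

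Of the catalytic subunits Cnot7, Cnot8 and Cnot6l, only Cnot8 passed the test. Cnot7 stood at 271 and 172 TPM in control embryos, and at 516 and 254 TPM after DMSO. The lower DMSO library lay below the higher control library, and the log2 fold change of 0.74 had a 95% interval from -0.23 to 1.72 (limma adjusted p = 0.212) and ranged from 0.23 without DMSO replicate 1 to 1.25 without DMSO replicate 2. Cnot8, its close paralog, stood at 35.0 and 35.9 TPM in control embryos, and at 15.4 and 18.3 TPM after DMSO. The control values were nearly equal, both DMSO values lay far below them, and the ratio of the group means was 0.475. Cnot8 fell by 1.04 on the log2(TPM + 1) scale, with a standard error of 0.27 (limma adjusted p = 0.0432). Its direction held under each alternative run, but the adjusted p-value was 0.0575 after median-ratio scaling, 0.0727 after quantile normalization, 0.0582 after rescaling without mitochondrial genes, 0.0562 without a trend and 0.0619 to 0.242 with a library left out.

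Cnot7 (ENSMUSG00000031601) spans chromosome 8 from 40492540 to 40515847 on the minus strand. It shares 3.28% of its words with Zdhhc2 on the opposite strand, which did not exceed 1.55 TPM. Cnot8 (ENSMUSG00000020515) spans chromosome 11 from 58104153 to 58118594 on the plus strand. A processed pseudogene, Gm18860, holds 11.7% of the words of Cnot8. It is not among the 30049 genes listed, so its own level is unknown.

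A ratio of TPM values within a library does not depend on the library's scaling. Cnot7 had 7.74 and 4.79 times the TPM of Cnot8 in control embryos, and 33.6 and 13.9 times after DMSO. The ratio was higher in both DMSO libraries, while the sum of the pair overlapped between groups, at 306 and 208 TPM (control) and 532 and 272 TPM (DMSO). On the log2(TPM + 1) scale the ratio differed by 1.78 (exact permutation p = 0.333, adjusted over 7 ratios 0.389), and by 1.15 without DMSO replicate 1 and 2.41 without DMSO replicate 2.

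Cnot6l encodes a deadenylase of the other catalytic pair and is the form known from mouse oocytes. Control embryos had 29.6 and 11.7 TPM of it, and DMSO-treated embryos 107 and 36.7 TPM. The groups did not overlap, but libraries of the same group were far apart, and the standard error of 0.60 was the largest of the 10 factors. The log2 fold change of 1.70 was also the largest, with a 95% interval from 0.25 to 3.15 (limma adjusted p = 0.0863). It was 0.94 without DMSO replicate 1, 1.06 without control replicate 2, 2.33 without control replicate 1 and 2.46 without DMSO replicate 2 (limma adjusted p = 0.346, 0.390, 0.104 and 0.0472). The paralog Cnot6 stood at 40.5 and 29.9 TPM in control embryos, and at 53.7 and 46.9 TPM after DMSO (log2 fold change 0.51, limma adjusted p = 0.215). Cnot6l had 0.730 and 0.390 times the TPM of Cnot6 in control embryos, and 2.00 and 0.783 times after DMSO, so that it exceeded Cnot6 in DMSO replicate 1 only. These ratios did not overlap between groups (difference 1.19 on the log2 scale, exact permutation p = 0.333), and the difference was 0.52 without DMSO replicate 1 and 1.85 without DMSO replicate 2. Cnot6l (ENSMUSG00000034724) spans chromosome 5 from 96070333 to 96164171 on the minus strand and has no shared words.

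Cnot1 encodes the scaffold on which CCR4-NOT assembles. Control embryos had 1.39 and 1.96 TPM of it, and DMSO-treated embryos 0.352 and 0.474 TPM. The groups did not overlap, which the filter favours for a gene that passes it through 1 group, and the log2 fold change was -0.91, with a standard error of 0.35 (limma adjusted p = 0.101), or -1.78 with a pseudocount of 0.1 in place of 1. These levels are uncertain, because reads that fit more than 1 gene are divided by an estimate. The processed pseudogene Gm6158, looked up after the values of Cnot1 had been seen, is 904 bases long, and 92.8% of its words occur in Cnot1, between bases 6532 and 7434 of a transcript of 8390 bases. Gm6158 was listed at 147 and 161 TPM in control embryos, and at 54.4 and 78.8 TPM after DMSO (log2 fold change -1.22, limma adjusted p = 0.0333). Both genes were thus lower in each DMSO library, and from which of them the reads of the shared stretch came cannot be told from TPM. That stretch is a small part of Cnot1, as Gm6158 holds 4.65% of the words of Cnot1. In all, 6.32% of the words of Cnot1 are shared with other genes. Cnot1 (ENSMUSG00000036550) spans chromosome 8 from 95719451 to 95807464 on the minus strand.

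**Figure D2:**
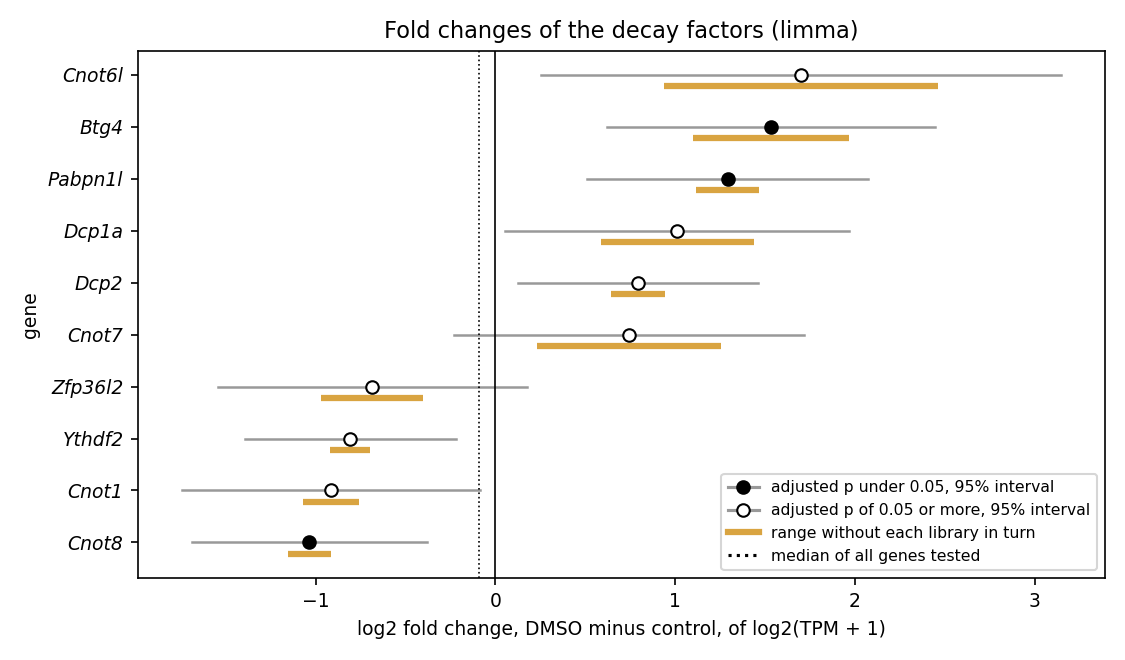
Log2 fold change (DMSO minus control, log2(TPM + 1) scale) of each decay factor with its 95% interval, filled where the limma adjusted p was under 0.05. Yellow bars give the range without each library in turn, and none of them crosses 0, although the intervals of Cnot7 and Zfp36l2 do.

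Ythdf2 encodes a reader of N6-methyladenosine (m6A), a methyl mark on mRNA, that recruits CCR4-NOT and whose maternal store is required for early development. Control embryos had 223 and 214 TPM of it, and DMSO-treated embryos 115 and 135 TPM. Libraries of a group were close together, and both DMSO values lay well below both control values. The log2 fold change of -0.81, with a 95% interval from -1.39 to -0.22, did not pass the test (limma adjusted p = 0.0597). The limma adjusted p was 0.0454 when the filter was raised to a mean of 5 TPM, 0.0837 after median-ratio scaling, 0.0884 after rescaling without mitochondrial genes, 0.0941 without a trend and 0.0792 to 0.269 with a library left out. After quantile normalization the fold change was -0.53 (limma adjusted p = 0.164). The paralog Ythdf3 stood at 41.7 and 40.4 TPM in control embryos, and at 72.7 and 55.4 TPM after DMSO (log2 fold change 0.62, limma adjusted p = 0.140). Ythdf2 was the more abundant of the pair in each library, by 5.34 and 5.31 times in control embryos, and by 1.59 and 2.43 times after DMSO. The ratio did not overlap between groups (difference -1.42 on the log2 scale, exact permutation p = 0.333). Ythdf2 (ENSMUSG00000040025) spans chromosome 4 from 132184912 to 132212303 on the minus strand. The processed pseudogenes Gm6823 and Gm8401 hold 11.4% and 11.2% of its words, and neither exceeded 0.111 TPM.

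The decapping enzyme and its activator had positive fold changes that did not pass the test. Dcp1a stood at 10.7 and 6.84 TPM in control embryos, and at 24.9 and 13.4 TPM after DMSO. Dcp2 stood at 20.4 and 18.6 TPM in control embryos, and at 38.4 and 30.9 TPM after DMSO. Neither gene overlapped between groups, and Dcp2 exceeded Dcp1a in each library, by 1.54 to 2.73 times. The log2 fold change of Dcp1a was 1.01, with a standard error of 0.40 (limma adjusted p = 0.110), and it was 0.59 without DMSO replicate 1 and 1.44 without DMSO replicate 2. That of Dcp2 was 0.79, with a standard error of 0.28 (limma adjusted p = 0.0838, or 0.0475 after quantile normalization). Dcp1a (ENSMUSG00000021962) spans chromosome 14 from 30479535 to 30527063, and Dcp2 (ENSMUSG00000024472) spans chromosome 18 from 44380502 to 44424969, both on the plus strand.

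**Figure D3:**
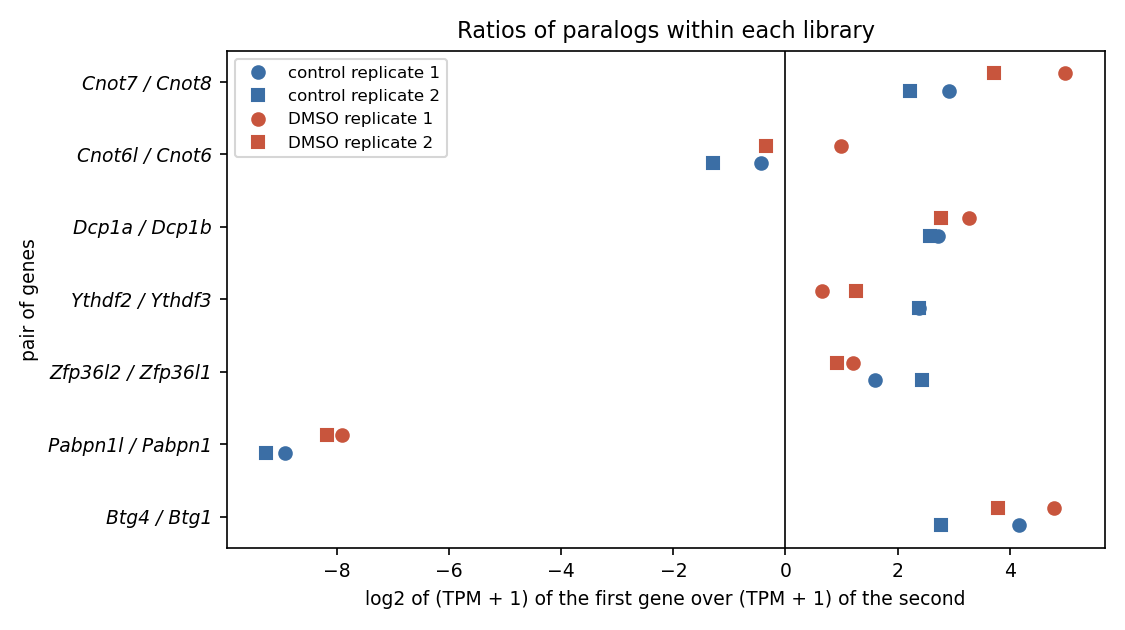
Log2 ratio of (TPM + 1) of a decay factor to (TPM + 1) of a paralog in each of the 4 libraries, for 7 pairs of genes. Control and DMSO libraries do not overlap for 6 pairs and overlap for Btg4 over Btg1.

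Across the 10 factors mean TPM spanned a 1161-fold range. Btg4 held 57.6% and 48.7% of their summed TPM in control embryos, and 72.7% and 73.4% after DMSO. The sum was 1410 and 916 TPM in control embryos, against 3036 and 1881 TPM after DMSO. Without Btg4 the sums overlapped between groups, at 598 and 470 TPM (control) and 829 and 501 TPM (DMSO).

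Pabpn1l was far below its paralog Pabpn1, the general nuclear poly(A)-binding protein. Pabpn1 had 622 and 819 times its TPM in control embryos, and 270 and 316 times after DMSO, ratios that did not overlap (difference 1.05 for Pabpn1l over Pabpn1 on the log2 scale, exact permutation p = 0.333). Of the words of Pabpn1 19.9% are shared with other genes. Btg4 exceeded Btg1, a general member of the BTG family, by 18.3 and 6.94 times in control embryos, and by 27.9 and 14.0 times after DMSO, ratios that overlapped (exact permutation p = 0.667). Their difference of 0.82 on the log2 scale was 0.13 without control replicate 2, 0.33 without DMSO replicate 1, 1.51 without control replicate 1 and 1.32 without DMSO replicate 2. Dcp1b and Zfp36l1 stayed under 2 TPM, and 60.0% of the words of Zfp36l1 are shared. On the log2(TPM + 1) scale Dcp1a over Dcp1b differed by 0.37 and Zfp36l2 over Zfp36l1 by -0.96 between groups (exact permutation p = 0.333 for each). With a pseudocount of 0.1 the first difference turned to -0.21 and the second was -1.59. With a library left out the first ran from 0.12, without DMSO replicate 1, to 0.62, without DMSO replicate 2, and the second from -1.37, without control replicate 1, to -0.54, without control replicate 2. The plain TPM ratio of Dcp1a to Dcp1b overlapped between groups, at 13.7 and 22.3 (control) and 14.8 and 12.05 (DMSO).

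Many maternal mRNAs are kept dormant with short tails and are translated once their tails are extended, which depends on the cytoplasmic polyadenylation element (CPE, TTTTAT or TTTTAAT) near the polyadenylation signal (AATAAA or ATTAAA). The last 100 bases of the transcript with the longest coding sequence (GENCODE M21, GRCm38, sense strand only) were searched for these letters. The 5 factors with the letters of a CPE are shown, since they include genes with fold changes of either sign, and capitals mark a CPE or a polyadenylation signal within the 30 bases, which lie in the 3′ UTR.
Btg4 (chr9:51119796-51119825, plus strand): aagataaatccctTTTTATgtctttttaaa
Cnot7 (chr8:40493036-40493065, minus strand): ttaaggtacaTTTTATatcAATAAAaatac
Dcp1a (chr14:30527010-30527039, plus strand): caaatatatttTTTTAATAAAatttcaaaa
Cnot8 (chr11:58118551-58118580, plus strand): ttatgtTTTTAATtttgtaaAATAAAgatt
Cnot1 (chr8:95719505-95719534, minus strand): aaagatgtattgaTTTTATatatgtgagta
In Cnot7 the CPE ends 14 bases and the signal 5 bases before the annotated end of the transcript. In Cnot8 these distances are 31 and 18 bases, and in Dcp1a TTTTAAT overlaps AATAAA.

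In Btg4 and Cnot1 neither polyadenylation signal was found in the last 100 bases, so that only the letters of the CPE were matched there. These letters were found in 5 of the 10 factors, against 19.2% of the 9792 tested genes with a 3′ UTR of at least 100 bases. Of these 5, Btg4, Cnot7 and Dcp1a had positive and Cnot8 and Cnot1 negative fold changes. Over all genes they were held by 18.6% of those called higher, 18.0% of those called lower and 19.4% of those not called. AATAAA was present in 5 factors, against 65.6% of genes, and ATTAAA in 3, against 21.1%. The AU-rich motif TATTTAT, to which ZFP36 proteins bind, lay anywhere in the 3′ UTR of 6 factors, against 27.8% of genes. The 3′ UTRs of the factors had a median length of 1224.5 bases, against 954 for the genes tested, and longer sequences hold more matches. A match describes the annotated sequence of the chosen transcript and is not a measured site. For Cnot6l, Cnot7 and Pabpn1l this transcript ends inside the gene, at 96075737, 40493036 and 122619546. The annotated genes reach to 96070333, 40492540 and 122619471, and ends of their other transcripts were not searched.

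The other subunits of CCR4-NOT numbered 7, and limma called 0 of them, while 1, Cnot3, had an unadjusted p-value under 0.05. Their log2 fold changes ran from -0.82 for Cnot10 to 0.82 for Cnot11, with a median of 0.51. Cnot3 had the highest mean, at 33.2 and 51.4 TPM in control embryos, and 63.0 and 84.5 TPM after DMSO. These 3 genes were named after their values had been seen. Among 8 other deadenylases, with a median of -0.08, Toe1 was the 1 call. Toe1, which trims the tails of small nuclear RNAs, fell from 13.9 and 12.2 TPM to 4.69 and 4.98 TPM (log2 fold change -1.26, limma adjusted p = 0.0349), but 35.2% of its words are shared with other genes. Medians close to 0, namely those of the other deadenylases, of poly(A)-binding proteins, of decapping genes and of activators of the decay phases, changed sign under at least 1 of the other scalings. The calls in each list stand against 6.42% of all genes called higher and 14.1% called lower.

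Among 4 other BTG and TOB genes tested, with a median of 0.47, Btg2 was the 1 call. Btg2, an antiproliferative protein induced by stress, rose from 3.43 and 1.56 TPM to 21.4 and 15.8 TPM. Both DMSO values were far above both control values. Its log2 fold change was 2.53, with a standard error of 0.39 (limma adjusted p = 0.0188). Among 12 other RNA-binding adaptors tested 0 were called higher and 2 lower, with a median of 0.06. Of these, Nanos3, a translational repressor of germ cells, fell from 7.59 and 15.7 TPM to 2.04 and 3.31 TPM (log2 fold change -1.73, limma adjusted p = 0.0382, or 0.0544 after median-ratio scaling).

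Among 7 other poly(A)-binding proteins and their partners tested, with a median of -0.18, 1 was called in each direction. Pabpc1l, the cytoplasmic form of oocytes and early embryos, rose from 6.46 and 2.73 TPM to 27.8 and 14.4 TPM (log2 fold change 2.00, limma adjusted p = 0.0345). Pabpc1, the general cytoplasmic form, fell from 381 and 459 TPM to 148 and 245 TPM (log2 fold change -1.13, limma adjusted p = 0.0493). The call of Pabpc1 was lost after median-ratio scaling (0.0789), quantile normalization (0.0934) and rescaling without mitochondrial genes (0.0689), and 16.1% of its words are shared. This call was also lost with a pseudocount of 0.1 (limma adjusted p = 0.0567) and without a trend (0.0708). Pabpc1 was above Pabpc1l in each library.

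Among 12 other genes of m6A (its writers, erasers and readers) tested 0 were called higher and 2 lower, against 6.42% and 14.1% of all genes. Their median was -0.46. Igf2bp2 and Igf2bp1 encode readers known to stabilize mRNA. Igf2bp2 fell from 14.1 and 13.8 TPM to 4.47 and 2.86 TPM (log2 fold change -1.70, limma adjusted p = 0.0247). Igf2bp1 fell from 15.9 and 13.5 TPM to 4.70 and 5.51 TPM (log2 fold change -1.36, limma adjusted p = 0.0314). Igf2bp3, a reader of the same family, was named after its values had been seen. It stood at 50.8 and 46.8 TPM in control embryos, and at 77.0 and 66.0 TPM after DMSO. Its log2 fold change of 0.54 did not pass (limma adjusted p = 0.163). Virma, a subunit of the methyltransferase complex, was listed at 0 throughout.

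Among 16 other genes of decapping and 5′ to 3′ decay tested 1 was called higher and 2 lower, with a median of -0.02. Lsm2 and Lsm5 encode subunits shared by the LSM rings of mRNA decay and of splicing. Lsm2 fell from 178 and 214 TPM to 35.4 and 69.0 TPM (log2 fold change -1.96, limma adjusted p = 0.0228). Lsm5, with 24.5% of its words shared, fell from 28.1 and 72.8 TPM to 12.3 and 9.93 TPM (log2 fold change -1.94, limma adjusted p = 0.0350, or 0.0526 after median-ratio scaling). Pnrc1, a nuclear receptor coactivator, rose from 62.6 and 28.5 TPM to 220 and 104 TPM (log2 fold change 1.81, limma adjusted p = 0.0455). Its call was lost without a trend (limma adjusted p = 0.0581) and with a pseudocount of 0.1 (0.0558).

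Among 17 genes of uridylation and 3′ to 5′ decay 6 were called lower and 0 higher, against 14.1% and 6.42% of all genes, with a median of -0.66. The lower calls numbered 5 after median-ratio scaling, 4 after quantile normalization and 5 after rescaling without mitochondrial genes. The genes called encode subunits of the RNA exosome, which degrades RNA from the 3′ end, or of its SKI cofactor. Exosc5 fell from 59.2 and 81.2 TPM to 9.95 and 21.6 TPM (log2 fold change -2.16, limma adjusted p = 0.0237). Exosc3 fell from 147 and 170 TPM to 37.4 and 54.8 TPM (log2 fold change -1.78, limma adjusted p = 0.0208). Exosc7 and the SKI subunit Wdr61 fell as well, with log2 fold changes of -1.74 and -1.97 (limma adjusted p = 0.0228 and 0.0250), and 32.9% of the words of Wdr61 are shared. Of the 17 genes 12 had negative and 5 positive log2 fold changes. The positive ones, named after their values had been seen, did not pass. They include the SKI subunits Ttc37 and Skiv2l (1.18 and 0.12) and the exosome subunits Exosc8 and Exosc9 (0.15 and 0.22). The uridylyltransferases Tut4 and Tut7, which tag deadenylated mRNA and were named after their values had been seen, had log2 fold changes of -0.10 and -0.66 and did not pass (limma adjusted p = 0.875 and 0.156).

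**Figure D4:**
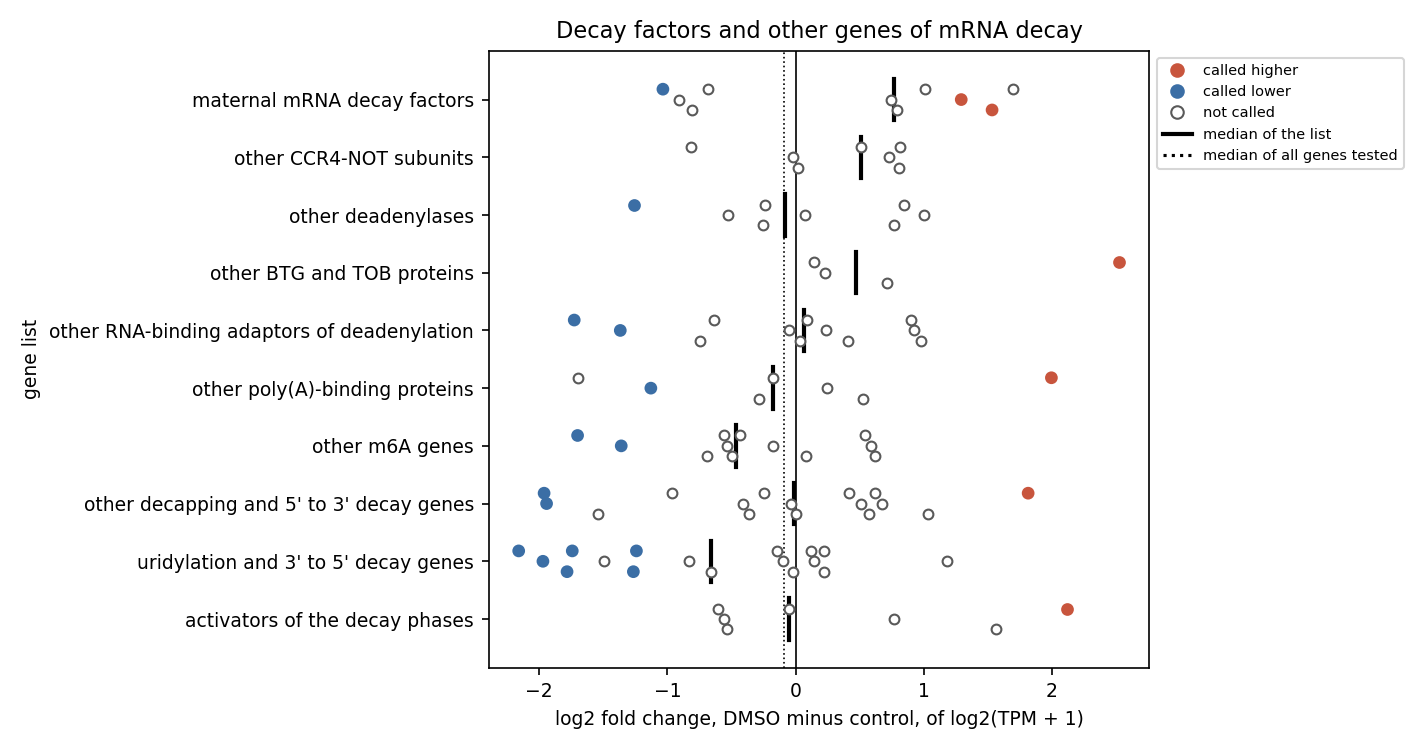
Log2 fold change (DMSO minus control, log2(TPM + 1) scale) of each tested gene of the decay factors and of 9 other lists of mRNA decay genes, red or blue where called higher or lower by limma, with bars at the list medians and a dotted line at the median of all genes. Of 17 genes of uridylation and 3′ to 5′ decay 6 are blue, and among the decay factors 2 are red and 1 is blue.

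Among 7 activators of the decay phases tested, with a median of -0.05, Mapk3 was the 1 call. Mapk3, a kinase of the pathway that switches on translation of maternal mRNA, rose from 25.6 and 14.5 TPM to 107 and 71.3 TPM (log2 fold change 2.12, limma adjusted p = 0.0218).

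Transcripts specific to the oocyte, of which some are known substrates of clearance, were set beside the factors. Their sum was 1223 and 787 TPM in control embryos, and 3077 and 2351 TPM after DMSO, and of 11 tested 4 were called higher and 0 lower, against 6.42% and 14.1% of all genes, with a median of 0.96. The higher calls numbered 7 after quantile normalization, 1 without DMSO replicate 2 and 0 with any of the other 3 libraries left out. Bmp15, an oocyte growth factor, rose from 102 and 56.0 TPM to 544 and 285 TPM (log2 fold change 2.36, limma adjusted p = 0.0221). Oosp1, an oocyte-secreted protein and the most abundant of the list, rose from 877 and 576 TPM to 2086 and 1763 TPM (log2 fold change 1.43, limma adjusted p = 0.0273). Lhx8 and Nobox, transcription factors of the oocyte, rose with log2 fold changes of 1.30 and 1.71 (limma adjusted p = 0.0461 and 0.0351), and Oog1 was listed at 0 throughout. Nobox, at 0.322 and 1.28 TPM in control embryos and 3.92 and 5.54 TPM after DMSO, passed the filter only through the group where it was high, so its call cannot be read as support for the count. With a pseudocount of 0.1 the fold change of Nobox was 2.64 and its call was lost (limma adjusted p = 0.0521), and its mean was too low for the filter at 5 TPM.

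Of the 5 markers of the 2-cell stage, with a median of 0.81, Tcstv1 and Tcstv3 were called higher (log2 fold changes 1.84 and 1.36, limma adjusted p = 0.0222 and 0.0281), with 28.6% and 51.0% of their words shared. Of the markers of other cells Amhr2 was called lower (log2 fold change -1.42, limma adjusted p = 0.0442), a call lost after each of the 3 other scalings (0.0573 to 0.0666). This call was also lost with a pseudocount of 0.1 (limma adjusted p = 0.053) and without a trend (0.0541). The sperm genes Prm2 and Tnp1, at 11.0 TPM or less, were called higher (log2 fold changes 1.39 and 1.35, limma adjusted p = 0.0408 and 0.0429), and Tnp1 was listed at 0 in control replicate 2. Tnp1 passed the filter only through the DMSO group, at 2.08 and 1.69 TPM against 0.281 and 0 TPM, so its test cannot be read as support for a difference, and the other 4 sperm markers were below the filter. With a pseudocount of 0.1 the fold change of Tnp1 was 3.34 and its call was lost (limma adjusted p = 0.0845), and its mean was too low for the filter at 5 TPM. The part of developmental stage or of other cells in the values of the decay factors was not tested.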

How the data were processed

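The authors made libraries with the SMARTer Ultra Low Input RNA Kit, sequenced them on a HiSeq2500, quantified Ensembl transcripts of GRCm38 (mm10) with kallisto, and summed them by gene with tximport. The table they deposited holds TPM values. The submitters' processing notes also name STAR, SAMtools and bedtools. Count models, such as the DESeq2 used by the study, were not applied to TPM. Columns were matched to samples by title, and depth is unknown.

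GENCODE M21, on GRCm38, named 29668 of 30049 identifiers. The test was limma's (version 3.58.1, R 4.3.3; lmFit, and eBayes with a trend), on log2(TPM + 1) for a mean of 1 TPM or more, with Benjamini-Hochberg adjustment, a threshold of 0.05 and 95% intervals. It was tested on simulated data. Shared sequence is the percentage of a gene's 31-base words, on either strand, that other genes' transcripts hold. Other steps used Python (version 3.11.15) with the packages numpy 2.4.6, scipy 1.17.1, pandas 2.3.3 and, for figures, matplotlib 3.10.9.

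The members, lists and tests were chosen with earlier results of these data known. The text names all members, the paralogs of 7 ratios, and from each other list up to 4 called genes with the lowest and 4 with the highest log2 fold change, except 1 that is not reported here. Alternatives were another pseudocount, filter or scaling, no trend, the replicate number as a block, and leaving out each library, where the lone library of a group was assumed to vary like the other group.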

Additional observations from a re-analysis of the deposited data

How the results depend on the processing

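Each decay factor kept its direction in all 138 fits under alternatives, but calls changed. Of all genes 2470 were called, against 0 with no filter on low values and 0 to 1883 with a library left out. The count of factors called lower, 1 above, was 0 with no filter, without a trend, after median-ratio scaling, after quantile normalization and after rescaling without mitochondrial genes. It was 2 of 8 tested, Cnot8 and Ythdf2, with a filter at 5 TPM, where 1684 of 7470 genes were lower. Lower calls over all genes numbered 1697 above and 1397 without a trend. They numbered 1262 after median-ratio scaling, 1121 after quantile normalization and 1315 after rescaling without mitochondrial genes. The count called higher, 2 above, was 0 with no filter, 1, Pabpn1l, without a trend and 3 after quantile normalization, with Dcp2 added. Higher calls over all 12038 genes numbered 773 above, 629 without a trend and 1076 after quantile normalization. Leaving out a library gave 0 lower and 0 to 1 higher calls, and a median log2 fold change of the factors from 0.41, without DMSO replicate 1, to 1.03, without DMSO replicate 2.

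Same-numbered libraries deviated together from their group means (r = 0.354 across 12038 genes, which are not independent replicates), but no source used here says what a number marks. With the replicate block 5132 genes were called, 17.9% of genes higher and 24.8% lower, all 2470 among them, and 5037 (2400 higher and 2637 lower) with the block and median-ratio scaling, and 4732 (2354 higher and 2378 lower) with the block and quantile normalization. The block called 6 factors higher under each of these scalings, Btg4, Pabpn1l, Cnot6l, Cnot7, Dcp1a and Dcp2, and 2 lower, Cnot8 and Ythdf2, or Cnot8 alone after quantile normalization. Of the 11 oocyte-specific transcripts tested the block called 10 higher under each of these scalings, and 0 lower. Nobox, which passed the filter only through the DMSO group, is among them. Of the 17 genes of uridylation and 3′ to 5′ decay it called 1 higher and 8 lower, or 7 lower after quantile normalization. With unknown depth no counting error can be given for low values such as those of Cnot1. The causes of these changes were not tested.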
